A study of Homo sapiens with 8 samples.

Results

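A set of 10 genes that WNT signaling is known to induce, most of which act back on the pathway, were followed across human embryonic stem cells cultured with and without bFGF and IL-11. The genes are AXIN2, NKD1, APCDD1, RNF43, ZNRF3, DKK1 and NOTUM, which restrain the pathway, and LEF1, TCF7 and SP5, which encode transcription factors. They were chosen by name, with earlier results of these data known, and every probe whose annotated symbol matched 1 of the 10 was taken. Of the 10 genes, 8 have a named probe, 1 each, among the 24526 probes of the array, and TCF7 and ZNRF3 were not analysed here. The probes of 5 genes (AXIN2, NKD1, APCDD1, LEF1 and SP5) passed the detection filter and are among the 9269 genes tested, while those of RNF43, DKK1 and NOTUM were not detected on any array.

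The cells were grown on Matrigel in N2B27 medium for 5 days in 4 conditions, with 2 Illumina human-8 arrays each. These are +IL-11+bFGF, with IL-11 at 10 ng/ml and bFGF (FGF2) at 24 ng/ml, then +IL-11 and +bFGF, with either factor alone at the same dose, and −bFGF, with neither. The sample labels give the cell line as H1 and the paper as H9, both established embryonic stem cell lines, and no source names an altered genotype. No source states if the paired arrays stem from different dishes. The p-values therefore cover array-to-array spread, possibly a purely technical one.

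In the canonical WNT pathway, a WNT ligand binds a Frizzled receptor together with LRP5 or LRP6, which stops a cytoplasmic destruction complex from marking beta-catenin for breakdown. Beta-catenin then enters the nucleus and binds DNA-bound factors of the TCF and LEF family at target genes, several of which encode inhibitors of the pathway and so form a feedback loop. In early human development the pathway is known for its part in forming the primitive streak and, later, the dorsal neural tube and the neural crest.

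The arrays were alike in quality. The median intensity lay between 112.8 and 120.6, 44.8% to 48% of probes were detected per array at a detection p under 0.01, and the squared correlation of the 2 arrays of a condition lay between 0.9871 and 0.9908. The response to bFGF itself could be read in the genes that FGF and ERK signaling induces, all 12 of which among those tested were higher on the 4 arrays with bFGF than on the 4 without. Of the 12, 1 passed the detection filter only through arrays with bFGF, where it is high. Among all 9269 genes tested, 27.8% were called in this comparison, 1238 genes as higher and 1342 as lower. SPRY4, a feedback inhibitor of receptor tyrosine kinases, was 7.33-fold higher (adjusted p = 1.32e-07 from limma). Of 12 markers of undifferentiated cells tested, 7 were higher with bFGF and 3 were lower, with POU5F1 2.37-fold higher (adjusted p = 9.13e-06), and SOX2 was detected on all 8 arrays with a log2 difference of 0.03. Of the 7 higher markers, 1 passed the detection filter only through arrays with bFGF.

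All 5 of the WNT genes tested were lower wherever bFGF was present, whether IL-11 was there or not. Values below are signals on the log2 scale after background correction and quantile normalization, with the intensity that the authors deposited, on a linear scale, in parentheses. Folds are ratios of signals that contain an offset of 16, which makes the folds of weak genes smaller.

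AXIN2 encodes a scaffold of the destruction complex and is the most widely used reporter gene of the canonical pathway. Its signal was 9.98 and 9.95 on the 2 arrays of +IL-11+bFGF (intensity 1064 and 1060), 12.06 and 11.93 in +IL-11 (4199 and 3714), 9.98 and 9.97 in +bFGF (1104 and 1046) and 12.06 and 11.92 in −bFGF (4384 and 3743). The 4 arrays with bFGF thus lay within 0.03 of each other and far below the 4 arrays without it, with no overlap. AXIN2 was 4.06-fold lower with bFGF over all 8 arrays (log2 difference -2.02, 95% confidence interval -2.16 to -1.88, adjusted p = 1.32e-07 from limma), and it ranked 3 of 9269 genes by p.

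NKD1 encodes a protein that binds Dishevelled, the first cytoplasmic relay of the WNT receptors, and damps the signal. Its signal was 6.05 and 6.45 in +IL-11+bFGF (intensity 121.2 and 144.1), 8.48 and 8.42 in +IL-11 (412.4 and 388.8), 5.91 and 6.54 in +bFGF (118.9 and 145.3) and 8.14 and 8.44 in −bFGF (355.5 and 402.4). With bFGF the probe was near background, since it was detected on 2 of 4 arrays, with a detection p of 0.0194 and 0.0162 on the remaining 2, whereas it was detected on 4 of 4 arrays without bFGF. No array with bFGF reached the lowest array without it. NKD1 was 4.38-fold lower with bFGF (log2 difference -2.13, interval -2.49 to -1.77, adjusted p = 2.33e-05).

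APCDD1 encodes a membrane protein that binds WNT ligands and their co-receptor at the cell surface. Its signal was 7.99 and 8.36 in +IL-11+bFGF (intensity 305.9 and 384.6), 9.73 and 9.63 in +IL-11 (891.7 and 813.5), 8.09 and 8.32 in +bFGF (336.4 and 362.7) and 9.72 and 9.84 in −bFGF (924.4 and 942.4). Again the arrays fell into a lower set with bFGF and a higher set without it, and the sets did not overlap. APCDD1 was 2.91-fold lower with bFGF (log2 difference -1.54, interval -1.77 to -1.31, adjusted p = 1.14e-05).

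LEF1 is one of the DNA-binding partners of beta-catenin, and the gene is itself a WNT target. Its signal was 8.68 and 9.01 in +IL-11+bFGF (intensity 458.4 and 576.2), 9.79 and 9.95 in +IL-11 (929.9 and 1005), 8.63 and 8.76 in +bFGF (461.7 and 476.9) and 9.85 and 10.07 in −bFGF (1011 and 1098). The highest array with bFGF, of +IL-11+bFGF, stayed below the lowest array without it, of +IL-11. LEF1 changed least of the 5 genes tested, 2.21-fold lower with bFGF (log2 difference -1.14, interval -1.37 to -0.92, adjusted p = 5.24e-05), and its interval did not overlap that of AXIN2, NKD1 or SP5.

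SP5 encodes a zinc finger transcription factor that is switched on by beta-catenin in many tissues. Its signal was 7.13 and 7.82 in +IL-11+bFGF (intensity 193.8 and 284.2), 9.68 and 9.15 in +IL-11 (863.3 and 605.4), 7.59 and 7.55 in +bFGF (255.8 and 234.6) and 9.55 and 9.86 in −bFGF (833.8 and 955.6). The 2 arrays of +IL-11+bFGF and the 2 of +IL-11 differed more from each other than those of the other conditions did, but the arrays with and without bFGF did not overlap. SP5 was 4.11-fold lower with bFGF (log2 difference -2.04, interval -2.41 to -1.66, adjusted p = 3.92e-05).

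**Figure D1:**
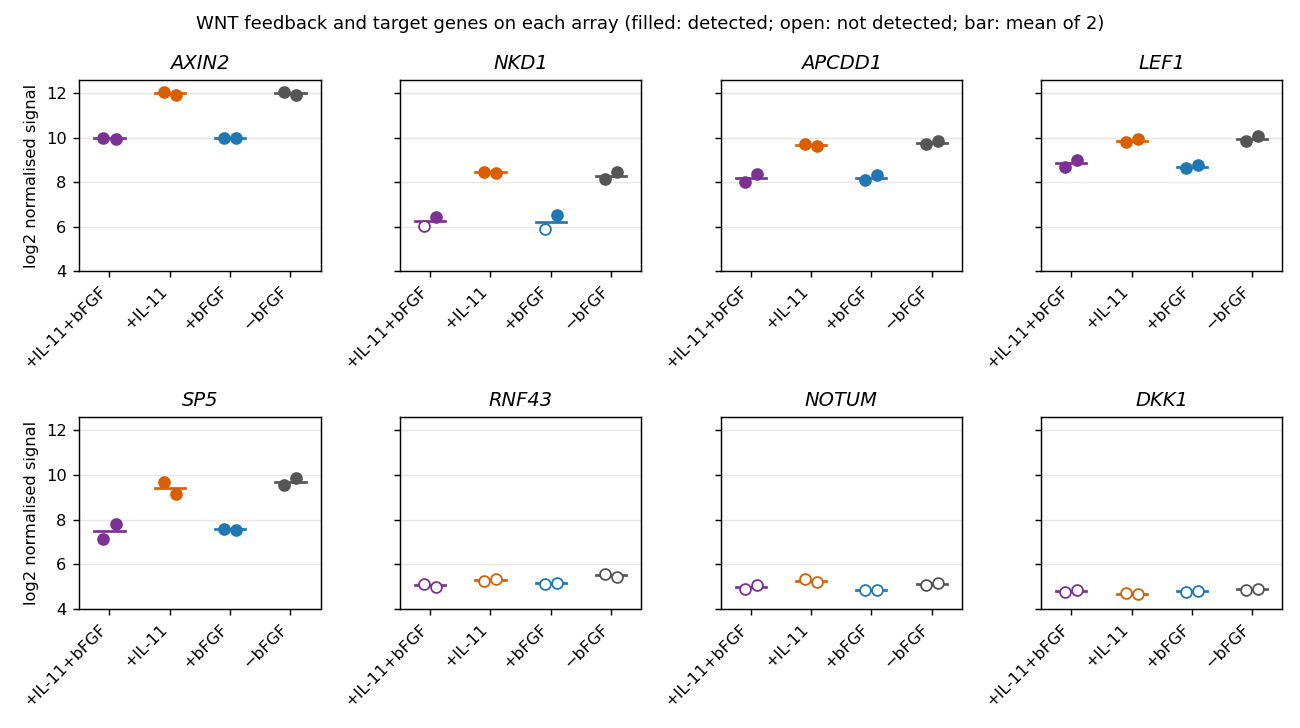
Log2 normalised signal of the 8 WNT genes with a named probe (vertical axis), by condition (horizontal axis), with 1 point per array, filled where the probe was detected at a detection p under 0.01 and open where it was not, and a bar at the mean of 2 arrays. The 4 arrays with bFGF (+IL-11+bFGF and +bFGF) lie below the 4 without it for AXIN2, NKD1, APCDD1, LEF1 and SP5, and every point of RNF43, NOTUM and DKK1 is open and below 5.6.

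Over the 4 arrays with bFGF against the 4 without, limma called 5 of the 5 genes lower at an adjusted p under 0.05. Among all 9269 genes tested, 27.8% were called in this comparison, 14.5% as lower, and in 16.1% every array with bFGF was below every array without it, as for all 5 of these genes. Since the members were chosen with earlier results of these data known, their count beside these shares is a description and not a test of the set. NKD1 passed the detection filter only through arrays without bFGF, where it is high, and AXIN2, APCDD1, LEF1 and SP5 were detected on all 8 arrays. The median log2 difference of the 5 was -2.02, against -0.01 over all genes, and their median size was 2.02, against 0.17. An exact permutation test of each gene over the 8 arrays gave a two-sided p of 0.0286, the smallest that 4 arrays against 4 allow. In RNA from whole cultures, fewer cells of a type and less RNA per cell cannot be told apart.

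The effect of bFGF was of like size with IL-11 in the medium and without it. With IL-11 present, the arrays of +IL-11+bFGF were lower than those of +IL-11 by 4.08-fold for AXIN2 (adjusted p = 3.5e-06 from limma), 4.6-fold for NKD1 (0.000473), 2.84-fold for APCDD1 (0.000315), 2.03-fold for LEF1 (0.00193) and 3.85-fold for SP5 (0.00111). In this comparison 11.3% of all genes tested were called, 5.67% as lower. Without IL-11, +bFGF was lower than −bFGF by 4.04-fold for AXIN2 (adjusted p = 3.61e-06), 4.17-fold for NKD1 (0.000584), 2.98-fold for APCDD1 (0.000232), 2.4-fold for LEF1 (0.000592) and 4.39-fold for SP5 (0.000592), where 15.3% of all genes were called, 7.96% as lower. The 2 comparisons share no array, but they come from the same fit with a common estimate of the spread, on arrays normalized together.

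The difference between these effects was tested as an interaction of bFGF and IL-11, which called 0 of the 5 genes and 0% of all genes tested by limma. Of the 5 genes, 0 also passed an unadjusted p under 0.05, against 1.9% of all genes. The interaction was estimated most narrowly for AXIN2, at -0.02 on the log2 scale with a 95% confidence interval of -0.3 to 0.27. The intervals were -0.86 to 0.58 for NKD1, -0.39 to 0.54 for APCDD1, -0.2 to 0.69 for LEF1 and -0.56 to 0.94 for SP5. Differences within these intervals remain compatible with the data from 2 arrays per condition.

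IL-11 did not measurably move these genes in either setting. In place of bFGF, it left AXIN2 at a log2 difference of 0 between +IL-11 and −bFGF, with an interval of -0.2 to 0.21. The differences of the other members were 0.16 for NKD1 (-0.35 to 0.67), -0.1 for APCDD1 (-0.43 to 0.23), -0.09 for LEF1 (-0.4 to 0.22) and -0.29 for SP5 (-0.82 to 0.24), and limma called 0 of the 5, with 0% of all genes called. Of the 5, 0 passed an unadjusted p under 0.05, against 5.31% of all genes. Added to bFGF, IL-11 left +IL-11+bFGF at log2 differences from +bFGF of -0.01 for AXIN2 (-0.21 to 0.19), 0.02 for NKD1 (-0.49 to 0.53), -0.03 for APCDD1 (-0.36 to 0.3), 0.15 for LEF1 (-0.16 to 0.47) and -0.1 for SP5 (-0.63 to 0.44). There too limma called 0 of the 5 and 0% of all genes, and 0 of the 5 passed an unadjusted p under 0.05, against 1.74% of all genes.

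Pooling the 4 arrays with IL-11 against the 4 without gave log2 differences between -0.19 (SP5) and 0.09 (NKD1), and limma called 0 of the 5 and 0% of all genes. Of the 5, 0 passed an unadjusted p under 0.05, against 4.54% of all genes, and the exact permutation p of the 5 genes ranged from 0.714 to 0.914. In the order of their mean levels, +IL-11 and −bFGF are neighbours at the top and +IL-11+bFGF and +bFGF neighbours at the bottom for each of the 5 genes, and neither of these pairs differed beyond the spread of its arrays.

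**Figure D2:**
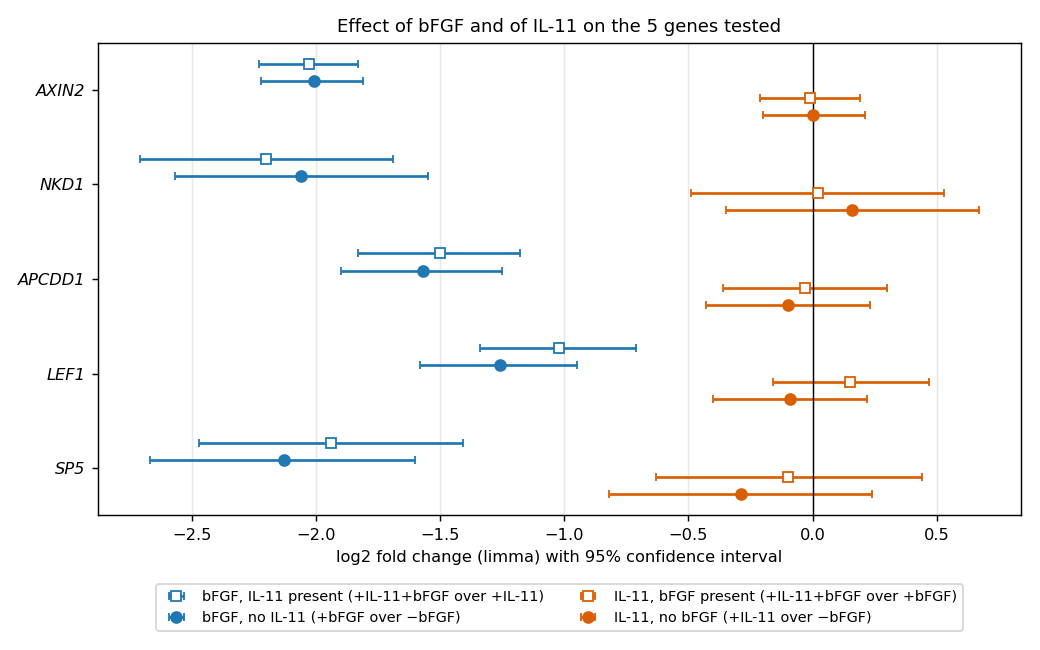
Log2 fold changes from limma with 95% confidence intervals (horizontal axis) for the 5 WNT genes tested (vertical axis), for bFGF in blue and for IL-11 in orange, each with the other factor present (open squares) and absent (filled circles). The 10 estimates for bFGF lie between -2.2 and -1.02 with no interval reaching 0, and the 10 for IL-11 lie between -0.29 and 0.16 with every interval spanning 0.

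Set against each other, the arrays with IL-11 alone and those with bFGF alone differed in all 5 genes. In +IL-11, AXIN2 was 4.05-fold higher than in +bFGF, NKD1 4.66-fold, APCDD1 2.78-fold, LEF1 2.26-fold and SP5 3.6-fold, all called by limma (adjusted p between 3.68e-06 and 0.00131). In this comparison 13.2% of all genes were called, 6.68% as higher. Each condition here also serves in the comparisons above, so these values add no separate arrays.

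The choice of test bears on the comparisons of 2 arrays with 2. The methods' t-test is the Student's t-test that the paper gives for means of triplicates, without naming the arrays. It estimates a gene's variance without borrowing from other genes. In each of the 3 comparisons of 2 arrays with 2 that involve a change of bFGF, it put all 5 genes under 0.05, the methods' threshold, unadjusted. Along with them it put 16.4% to 18.9% of all genes tested there. After Benjamini-Hochberg adjustment over all genes it called 0 of the 5 in each, with adjusted p between 0.197 and 0.255 for +bFGF against −bFGF, between 0.202 and 0.301 for +IL-11+bFGF against +IL-11, and between 0.185 and 0.226 for +IL-11 against +bFGF. An exact permutation test of 2 arrays against 2 cannot go below 0.333.

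The start of SP5 is shown because it carries more copies of the TCF and LEF motif than that of any other member with a promoter entry, and the start of LEF1 because it belongs to a member that also fell with bFGF and carries none. Both are the 250 bases before the transcription start from RefSeq (GRCh38.p14), at chr2:170715087-170715336 on the plus strand for SP5 and chr4:108166302-108166551 on the minus strand for LEF1, written 5′ to 3′ on the gene's strand. Capitals mark the motif, searched on both strands as CTTTGNN with A or T at each N, and no matches overlapped.
SP5: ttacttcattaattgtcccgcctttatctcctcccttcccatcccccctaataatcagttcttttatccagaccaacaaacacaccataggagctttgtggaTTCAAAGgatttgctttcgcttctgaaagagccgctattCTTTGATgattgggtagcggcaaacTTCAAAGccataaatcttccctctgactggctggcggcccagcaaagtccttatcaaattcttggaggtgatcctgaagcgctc
LEF1: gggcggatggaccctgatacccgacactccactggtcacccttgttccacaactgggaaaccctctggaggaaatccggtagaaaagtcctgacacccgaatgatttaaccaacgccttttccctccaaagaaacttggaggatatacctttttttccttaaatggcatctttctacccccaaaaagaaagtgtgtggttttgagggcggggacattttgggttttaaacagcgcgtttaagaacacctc
In SP5 the motif begins 148, 109 and 84 bases before the start, on the opposite, the same and the opposite strand of the gene, so that the first and the last appear above as the reverse complement. Of the 10 members, 6 have an entry, with 8 start windows of 300 bases between them, and 3 of the 8 windows hold the motif (37.5%). Over all 35116 windows of this length 13.8% hold it. Among the genes tested, with only the first listed window of each gene taken (7702 windows), 8.2% hold it. That count is unlike the one for the members, which takes every start window. APCDD1, LEF1 and RNF43 have 0 matches, which says only that these letters are not in these windows. A match is a description of the sequence and not a bound site.

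RNF43, DKK1 and NOTUM stayed at background in all 4 conditions. RNF43 encodes a membrane ubiquitin ligase that removes Frizzled receptors, and its signal was 5.12 and 4.96 in +IL-11+bFGF (intensity 86.93 and 80.19), 5.26 and 5.35 in +IL-11 (93.66 and 93.68), 5.12 and 5.14 in +bFGF (88.63 and 85.93) and 5.54 and 5.44 in −bFGF (105.3 and 95.78). NOTUM encodes a secreted enzyme that strips the lipid from WNT ligands, and its signal was 4.89 and 5.04 in +IL-11+bFGF (77.81 and 83.29), 5.31 and 5.18 in +IL-11 (95.58 and 87.84), 4.82 and 4.82 in +bFGF (75.83 and 73.35) and 5.06 and 5.17 in −bFGF (87.45 and 86.83). The 4 arrays with bFGF were below the 4 without for both genes (exact permutation p = 0.0286 each, two-sided). This order held for 16.1% of all genes tested, which do not include RNF43 and NOTUM, and no share was computed for undetected probes. Detection p ranged from 0.0194 to 0.11 for RNF43 and from 0.0324 to 0.265 for NOTUM, so these are orders of signals at background, and no size is given where neither side was detected.

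DKK1 encodes a secreted protein that blocks the LRP5 and LRP6 co-receptors. Its signal was 4.73 and 4.83 in +IL-11+bFGF, 4.68 and 4.67 in +IL-11, 4.76 and 4.79 in +bFGF and 4.84 and 4.88 in −bFGF, with intensities between 66.18 and 77.4 and detection p between 0.175 and 0.631. The arrays with and without bFGF overlapped (exact permutation p = 0.914). Its start is shown because it holds the motif while its probe gave no signal above background, at chr10:52314031-52314280 on the plus strand (GRCh38.p14, RefSeq), with the matches in capitals 95 and 76 bases before the start.
DKK1: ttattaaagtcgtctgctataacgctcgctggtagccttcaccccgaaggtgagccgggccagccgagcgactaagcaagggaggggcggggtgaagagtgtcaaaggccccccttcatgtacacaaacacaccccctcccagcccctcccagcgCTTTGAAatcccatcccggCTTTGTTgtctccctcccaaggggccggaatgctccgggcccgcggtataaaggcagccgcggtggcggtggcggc
The remaining match among the members is at the second annotated start of TCF7, 50 bases before it on the opposite strand, and its level was not analysed here.

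The other genes of the pathway did not all differ in the same direction with bFGF, and their counts stand against the 27.8% of all genes called, 14.5% as lower. Of 20 other genes known as WNT targets, 18 have a named probe and 12 were tested, of which 5 were lower with bFGF, 2 were higher and 5 were not called, with a median log2 difference of -0.02 against -0.01 over all genes. The lower ones were MSX1 (4-fold, adjusted p = 0.000107 from limma) and MSX2, homeobox genes of dorsal neural tissue and neural crest, TNFRSF19 (3.18-fold, 3.38e-05), a receptor of the TNF family, MIXL1 (3.61-fold, 0.000929, detected on 2 of 4 arrays with bFGF), a homeobox gene of the primitive streak, and BAMBI (1.86-fold, 0.000787), which blocks TGF-beta family receptors. MSX2 and MIXL1 passed the detection filter only through arrays without bFGF. MSX2 was detected on 4 of 4 arrays without bFGF and 0 of 4 with it, and was at least 1.65-fold lower (0.00124 for the fitted difference).

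The 2 that were higher with bFGF ran opposite to the 5 members. They are MYC, a growth-promoting transcription factor (1.73-fold, adjusted p = 0.000501 from limma), and CD44, a hyaluronan receptor (1.8-fold, 0.0228). BAMBI, MYC, CD44 and DKK4 were named after their values were seen. CCND1, a cyclin, differed by 0.1, FZD7 by -0.08, NKD2, the relative of NKD1, by 0.04, CDX2 by 0.06 and DKK4, a relative of DKK1, by 0.23 on the log2 scale, and these 5 were not called.

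Upstream of the members, 5 of 10 tested genes for WNT ligands and their secretion, of 21 listed, were lower with bFGF and 0 were higher. Of the 5 lower genes, 4 passed the detection filter only through arrays without bFGF, so their count supports nothing. Of the 5 genes that passed on both sides WLS alone was lower, against 13.3% of all genes that passed on both sides. WNT1 and WNT4 were detected on 4 of 4 arrays without bFGF and 0 of 4 with it, and were at least 5.53-fold and at least 3.93-fold lower. These bounds come from the lowest detected signals and not from limma, whose adjusted p (6.05e-07 and 7.66e-07) belongs to the fitted difference. WNT3A, a ligand of the canonical pathway, was 9.76-fold lower (1.14e-05) and was detected on 2 of 4 arrays with bFGF. WLS, which carries WNT ligands to the cell surface, was 2.66-fold lower (1.42e-05). WNT10B, named after its values were seen, was at least 1.49-fold lower (0.00107 for the fitted difference). The median of the 10 was -0.71 with fitted values and -0.44 with the 3 undetected genes set at their bounds.

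Of 15 tested receptors and R-spondins, of 22 listed, 7 were lower with bFGF and 0 were higher, with a median of -0.32. Among all genes tested, 27.8% were called and 14.5% were lower. Of the 7, 1 passed the detection filter only through arrays without bFGF. RSPO3, an R-spondin that binds RNF43 or ZNRF3 and so keeps Frizzled receptors on the membrane, was 4.23-fold lower (adjusted p = 8.55e-05 from limma). Of 8 tested secreted antagonists other than the members, of 15 listed, 2 were higher and 1 was lower, the latter a share near that of all genes. SFRP2, which binds WNT ligands outside the cell, was 2.15-fold higher (7.3e-06) and SOSTDC1 1.44-fold higher (0.00746), and FRZB was 1.43-fold lower (0.00925).

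Between the receptor and the target genes lie the destruction complex and the nuclear partners of beta-catenin. Of 13 tested genes of the destruction complex and its relays, of 17 listed, 1 was higher, 2 were lower and 10 were not called, with a median of 0.01 and a range of -0.33 to 0.17 for those not called. These shares are near those of all genes, 27.8% called and 14.5% lower. CTNNB1, which encodes beta-catenin, differed by 0.08 (adjusted p = 0.686 from limma), and AXIN1, the relative of AXIN2, by -0.05 (0.756). The 3 that were called, AMER1, FRAT2 and FBXW11, differed by -0.43 (0.00199), -0.26 (0.0424) and 0.2 (0.0406) in that order. The list of nuclear partners of beta-catenin also holds corepressors, and of its 12 tested genes, of 14 listed, 4 were lower. All 4 are corepressors, with TLE3 the most changed (1.68-fold, 0.00374). TCF7L1 and TCF7L2, relatives of LEF1, were not called, at -0.06 (0.748) and 0.17 (0.412). The 4 called genes of this list likewise stand against 27.8% of all genes called, 14.5% as lower, and its 8 uncalled genes ranged from -0.32 to 0.48.

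**Figure D3:**
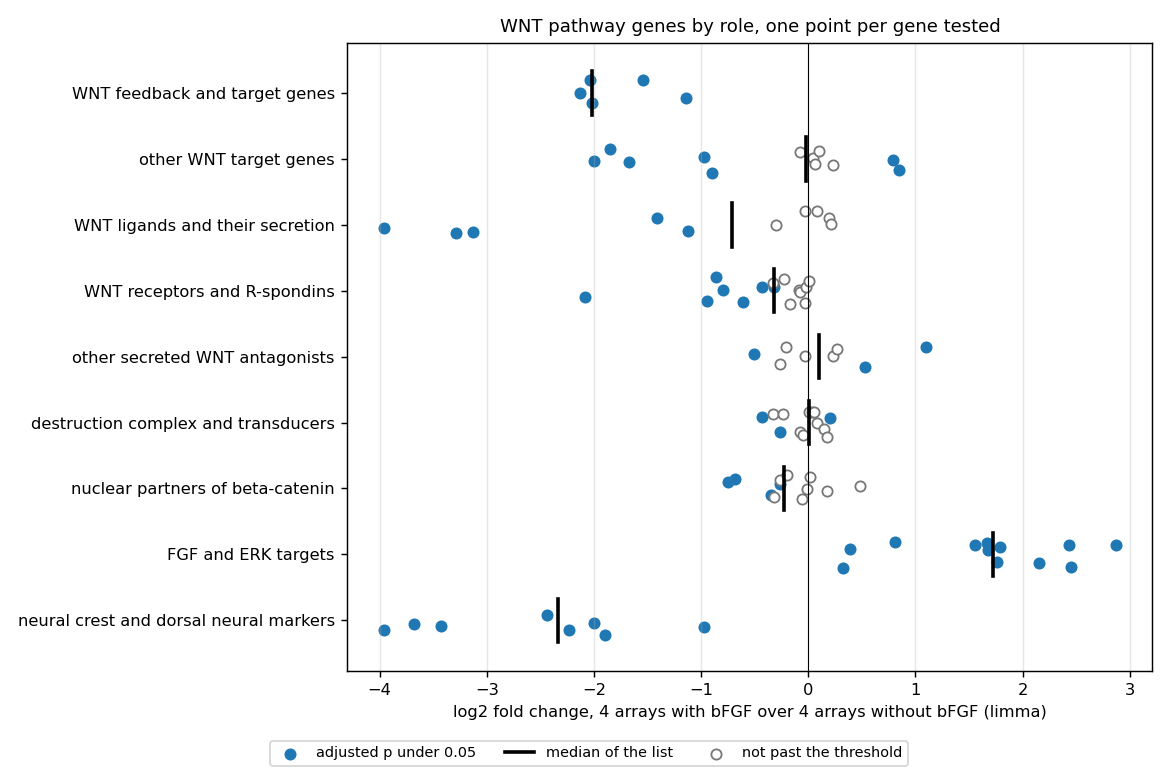
Log2 fold change of 4 arrays with bFGF over 4 without, from limma (horizontal axis), for every gene tested in each list (rows), filled where the adjusted p is under 0.05 and open where it is not, with a bar at the median of the list. The 5 WNT members lie between -2.13 and -1.14 and the FGF and ERK targets are all above 0, while genes not detected on 1 side, such as WNT1 and WNT4, stand at fitted values that are no bounds, and WNT1, MSX1, FZD7 and DKK4 stand in 2 rows each.

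Between +IL-11 and −bFGF, between +IL-11+bFGF and +bFGF, and in the 4 arrays with IL-11 against the 4 without, limma called 0% of all genes tested. The 0 genes called in each of these 6 lists follow from that and say nothing particular about the lists. In +IL-11+bFGF against +IL-11, 11.3% of all genes tested were called, 5.67% as lower. There MSX1 was 4.06-fold lower (adjusted p = 0.00199 from limma), RSPO3 4.09-fold lower (0.00194) and WNT3A 9.35-fold lower (0.000315). WNT3A passed the detection filter only through arrays without bFGF and was not detected on 1 of the 2 arrays of +IL-11+bFGF. In the same comparison MYC was 1.86-fold higher (0.00428) and CD44 was not called, at 0.59 (0.304).

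Markers of other cell types differed with bFGF to an unequal extent, and their counts stand against the 27.8% of all genes called, 14.5% as lower. All 8 tested markers of neural crest and dorsal neural cells were lower with bFGF. Of these, 4 passed the detection filter only through arrays without bFGF (as did 395 of all genes, 187 of them lower), and the remaining 4 passed on both sides, where 13.3% of all genes were lower. For this list the summed normalised signal of the 11 with a named probe was 2058 to 2932 on the arrays with bFGF and 9190 to 9802 on those without. It shares WNT1 and MSX1 with the WNT lists, and ZIC1 and NEUROG1 were not detected on any array. Of 7 neuroectoderm markers tested, 5 were lower (sums 8225 to 9381 with bFGF, 11270 to 13670 without, SOX1 and OTX1 undetected throughout), and of 6 primitive streak and mesoderm markers 3 were lower and 1 higher (1566 to 2949 with bFGF, 3765 to 8129 without, TBX6, KDR and GATA4 undetected). Of 7 trophectoderm markers 5 were lower and 1 higher (3636 to 5129 with bFGF, 8635 to 12110 without, CGA, CGB3, GATA2 and PGF undetected), and of 7 endoderm markers 1 was lower, a share near that of all genes (1807 to 7063 with bFGF, 4749 to 9988 without, CER1, GATA6 and HHEX undetected). Of 9 markers of fibroblast-like support cells 6 were lower and 1 higher (46960 to 59980 with bFGF, 64790 to 86040 without, LUM, FBN1 and POSTN undetected). Of the lower markers, 1 of neuroectoderm, 2 of primitive streak and 2 of trophectoderm likewise passed the filter only through arrays without bFGF. MIXL1 and CDX2 are also on the WNT target list, and HAND1 is on 2 of these marker lists. The part of these cell types in the levels of the WNT genes was not tested.

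Over the 8 arrays, the genes outside the members whose signal followed AXIN2 most closely were WNT4 (Pearson r 0.997), TCF25 (0.995), CCDC102A (0.995), LMO1 (0.995) and WNT1 (0.994). Among the members, r with AXIN2 was 0.985 for APCDD1, 0.977 for NKD1, 0.969 for SP5 and 0.967 for LEF1. These values describe 8 arrays that lie at 2 levels set by bFGF, so any gene that differs between those levels scores high. The size of the change with bFGF differed among them. It was -0.52 on the log2 scale for TCF25, -0.58 for CCDC102A and -2.17 for LMO1, a LIM domain transcription regulator, while WNT4 was at least 3.93-fold and WNT1 at least 5.53-fold lower with bFGF.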

How the data were processed

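Biotin-labelled cRNA, made from total RNA by linear amplification, was hybridised to Illumina human-8 BeadChips. Per probe, the authors deposited the intensity as read, without normalization, a detection p-value for it relative to negative control beads, and a separate table of background-subtracted, normalized intensity. Rank invariant normalization in BeadStudio is given in their methods, while GenomeStudio appears in the submitters' processing notes. Slide positions and scan days are not given in the sources used here.

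Of 24526 probes, 21834 have a gene symbol in the platform annotation, 2692 do not, and 21813 matched a current gene identifier (GRCh38.p14, names only). The non-normalized intensities were corrected with limma 3.58.1 in R 4.3.3 (neqc: normexp with offset 16, quantile normalization, log2). A probe was retained if some condition had both of its arrays at a detection p under 0.01 (11668 probes), and the brightest such probe on average stood for its gene (9269 genes). All 8 arrays were fitted together, by condition, without covariates (4 residual degrees of freedom, prior 5.69, intensity trend). In all, 8 comparisons were made, with Benjamini-Hochberg adjustment within each at 0.05, and the standard error of +bFGF against −bFGF had a median of 0.138 on the log2 scale. The number of arrays limits the precision.

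A fold against a side where the probe was undetected on every array is a lower bound, taken against the lowest detected signal of each array or the signal of the probe itself where that is higher. An adjusted p beside such a bound is that of the fitted difference, and the bound itself was not tested. The fit was tested on simulated data. The 10 members, the pathway and marker lists and the tests were chosen with earlier results of these data known. Named genes are the members, up to 4 called genes per list with the largest changes with bFGF, up to 4 uncalled genes per list not chosen by size, the 5 genes most correlated with AXIN2, and those said to be named after their values were seen. The alternatives were no background correction, the authors' normalized table, median scaling, 3 other detection filters, 2 other probe rules, no intensity trend, the replicate number as a block, the methods' t-test, a fit of only the arrays compared and leaving out each array. TCF7 and ZNRF3 have no named probe here, and AXIN2, NKD1, ZNRF3 and NOTUM no promoter entry.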

Additional observations from a re-analysis of the deposited data

How the results depend on the processing

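The 5 genes were called in the same direction in the 4 comparisons that involve a change of bFGF under each alternative with limma, apart from the filter on detection in all 8 arrays, which leaves out NKD1 and so tests 4. Without each array in turn all 5 calls held. Under the methods' t-test 0 of 5 were called in +bFGF against −bFGF, in +IL-11 against +bFGF and in +IL-11+bFGF against +IL-11, where it called 2, 0 and 0 of all 9269 genes against 1417, 1224 and 1048 by limma. It called 5 of 5 over the 4 arrays with bFGF against the 4 without, where it called 24.2% of all genes. Across the alternatives, NKD1 had its own smallest change without background correction, with a log2 difference of -1.55 over those 8 arrays. Without a detection filter, limma also called NOTUM (adjusted p = 0.0282) and RNF43 (adjusted p = 0.0363) lower with bFGF and NOTUM higher in +IL-11 than in +bFGF (adjusted p = 0.0436), though neither was detected on any array, and at a detection p under 0.05 these calls were absent.

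The differences with IL-11 were near 0 and changed sign in places, with no call under any alternative run. AXIN2 between +IL-11 and −bFGF was -0.02 with median scaling, and between the arrays with and without IL-11 it was 0 in the authors' normalized table, with the sign turned. When 1 array was left out at a time, the log2 difference of +IL-11 against −bFGF ranged from -0.07 to 0.08 for AXIN2 and -0.2 to 0.02 for LEF1. That of +IL-11+bFGF against +bFGF ranged from -0.03 to 0.01 for AXIN2, -0.3 to 0.33 for NKD1, -0.21 to 0.16 for APCDD1, -0.01 to 0.32 for LEF1 and -0.44 to 0.25 for SP5. That of the arrays with IL-11 against those without ranged from -0.04 to 0.03 for AXIN2, -0.07 to 0.25 for NKD1, -0.15 to 0.03 for APCDD1 and -0.05 to 0.11 for LEF1. The interaction ranged from -0.09 to 0.06 for AXIN2, -0.46 to 0.17 for NKD1, -0.11 to 0.26 for APCDD1 and -0.16 to 0.54 for SP5. The cause was not tested.

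Deviations of same-numbered arrays correlated between 0.102 and 0.195 in 5 of the 6 pairs of conditions and at -0.056 between +IL-11+bFGF and +bFGF, and no label says that the numbers mark a shared batch, so the arrays were not treated as paired. With the replicate number as a block, the counts stayed at 5 of 5 in each comparison that involves bFGF and at 0 in the others, and limma called 1648 of all genes against 1417 without the block for +bFGF against −bFGF, 1371 against 1224 for +IL-11 against +bFGF, 1211 against 1048 for +IL-11+bFGF against +IL-11 and 2719 against 2580 for the arrays with and without bFGF. The fit on only the arrays compared was not run for the interaction and the comparisons of 4 arrays with 4, nor the methods' t-test for the interaction. With 2 arrays per condition, probes near background such as NKD1 with bFGF, RNF43, NOTUM and DKK1 are limited by their signal over the negative controls.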
